A study of Homo sapiens with 5 samples.

Results

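The MYC, MAX and MXD network is a set of DNA-binding proteins that pair with each other through a shared helix-loop-helix and leucine zipper, and its 10 members described here are the gene rows named exactly MYC, MYCN, MYCL, MAX, MXI1, MXD1, MXD3, MXD4, MNT and MGA. They are 10 of the 43714 gene rows of the count tables, and all 10 passed the filter on low counts that left 15859 genes for testing. RNA was sequenced from Rh41, an established human line of alveolar rhabdomyosarcoma of the fusion-positive form, in a study that asks how H3.3, a variant of histone H3, bears on metastasis. In 2 libraries the cells had received a scrambled siRNA (replicates 1 and 3) and in 3 libraries an siRNA against H3F3A, one of the genes for H3.3 (replicates 1, 2 and 3). Both groups were transfected with Lipofectamine RNAiMAX and harvested after 48 hours. Rh41 is a single line, so each comparison is between cultures of the same genetic background, and nothing in the labels tells whether replicates came from separate cultures. The p-values then measure only how these libraries spread, and that spread may be technical.

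MYC, MYCN and MYCL are activators of growth genes that bind DNA as dimers with MAX, and they are short-lived proteins. MXD1, MXI1, MXD3, MXD4, MNT and MGA bind MAX as well, and recruit corepressors to the same sites, so that the balance of activators and repressors around MAX sets the output of shared targets. In fusion-positive rhabdomyosarcoma, MYCN is known as a target of the PAX3-FOXO1 fusion protein and is often amplified.

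The DNA word that MAX dimers prefer is the E-box CACGTG, which is its own reverse complement, so both strands were searched at once. RefSeq promoter windows on GRCh38.p14, from 250 bases before to 50 bases after a gene's start, were matched by symbol. The word was present in 8.78% of the 27305 genes with a full window and in 12% of the 11677 tested genes that matched. Of the 9 members that matched it was present in 2, MXD4 and MNT, and MYC had no entry. Of 78 MYC target genes with a window, in the 2 target lists described further on, 38 held it, or 48.7%. The windows below are shown because MXD4 and MNT are the members that hold the word, because ODC1, which makes polyamines, is a textbook MYC target, and because SLC7A5 and SLC19A1 are the targets whose transcripts changed. Capitals mark the E-box, each sequence reads 5′ to 3′ on the gene's own strand, and a match is a description of the letters, not of binding. ODC1 holds another E-box 6 bases after the start, which is not printed.
MXD4, chr4:2262322-2262359, minus strand, 238 bases before the start: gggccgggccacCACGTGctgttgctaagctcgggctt
MNT, chr17:2401228-2401273, minus strand, 193 bases before the start: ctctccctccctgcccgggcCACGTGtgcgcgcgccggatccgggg
ODC1, chr2:10448016-10448061, minus strand, 29 bases before the start: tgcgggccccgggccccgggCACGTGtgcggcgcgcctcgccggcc
SLC7A5, chr16:87869612-87869657, minus strand, 130 bases before the start: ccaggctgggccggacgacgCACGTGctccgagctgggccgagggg
SLC19A1, chr21:45541799-45541824, minus strand, 33 bases after the start: cgcgcccaggCACGTGttgcttcggg

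H3F3A was low in all 3 H3F3A siRNA libraries. It had 8571 and 7983 counts in the scrambled libraries and 280, 304 and 264 after H3F3A siRNA, a 29.7-fold fall (log2 fold change -4.89, SE 0.0923, edgeR adjusted p = 9.04e-21). H3F3B, which encodes the same protein, had a log2 fold change of -0.0035 with a 95% interval of -0.16 to 0.15. The libraries held 28493573 to 30705963 counts assigned to genes. Counts scaled to library size (CPM, with factors from the trimmed mean of M values) showed the muscle tumour identity of the line in all 5 libraries. The summed level of 14 rhabdomyosarcoma markers was 5393 to 6332 CPM under scrambled siRNA and 4744 to 4844 CPM after H3F3A siRNA, with MYOD1, MYOG and DES all abundant, although MYF5 and CDH3 were at or near 0. In bulk RNA, fewer cells of a type and less RNA per cell cannot be told apart, and the part of this shift in the results below was not tested. The summed levels of 7 fibroblast markers (35.2 to 45.7 CPM, nearly all PDGFRB), 7 epithelial markers (3.60 to 4.59), 6 endothelial markers (7.24 to 8.39) and 7 immune markers (4.08 to 4.86) were low, with EPCAM, CDH1, KDR and PTPRC at or near 0. Some broadly expressed genes are also listed at or near 0 in these tables, as given with the lists further on, so a listed 0 alone does not show that a gene is silent. Among these markers FGFR4 fell 1.41-fold and TFAP2B rose 1.41-fold (edgeR adjusted p = 0.00257 and 0.00133), though neither was called without H3F3A siRNA replicate 1, at log2 fold changes of -0.49 and 0.50 against -0.50 and 0.49 (adjusted p = 0.0838 and 0.0541). With the GC trend removed FGFR4 was at -0.28 (adjusted p = 0.013), and with scrambled replicate 1 also left out at -0.26 (adjusted p = 0.204). Scrambled replicate 1 stood apart, in that its log2 CPM, relative to the other libraries, had a slope of 0.148 per 10 points of transcript GC content. The slope was -0.00649 in scrambled replicate 3 and -0.06, -0.0407 and -0.0403 in H3F3A siRNA replicates 1, 2 and 3. As the mean includes scrambled replicate 1, the slopes of the other libraries partly mirror its own.

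None of the 10 members passed the test between H3F3A siRNA and scrambled siRNA at an adjusted p under 0.05 (edgeR quasi-likelihood test), where 3.2% of all genes tested were called, 2.69% lower and 0.504% higher. At an unadjusted p under 0.05 there were 2, MYC and MXD3, or 20%, against 16.8% of all genes. DESeq2 called none of the members, where it called 544 of the 15859 genes tested. It had 1 member, MYC, at an unadjusted p under 0.05, where 2090 of all genes were. Log2 fold changes of the members ran from -0.22 for MXD3 and MYC to 0.13 for MGA and MXD4, with a median of 0.03 against 0.01 over all genes tested. The members' intervals were narrow, and no interval of the 10 reached a change of 1.5-fold in either direction. The bounds farthest from 0 were -0.43 for MXD3 and 0.38 for MXD1 on the log2 scale. The plot of CPM by library shows how little the groups separated.

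**Figure D1:**
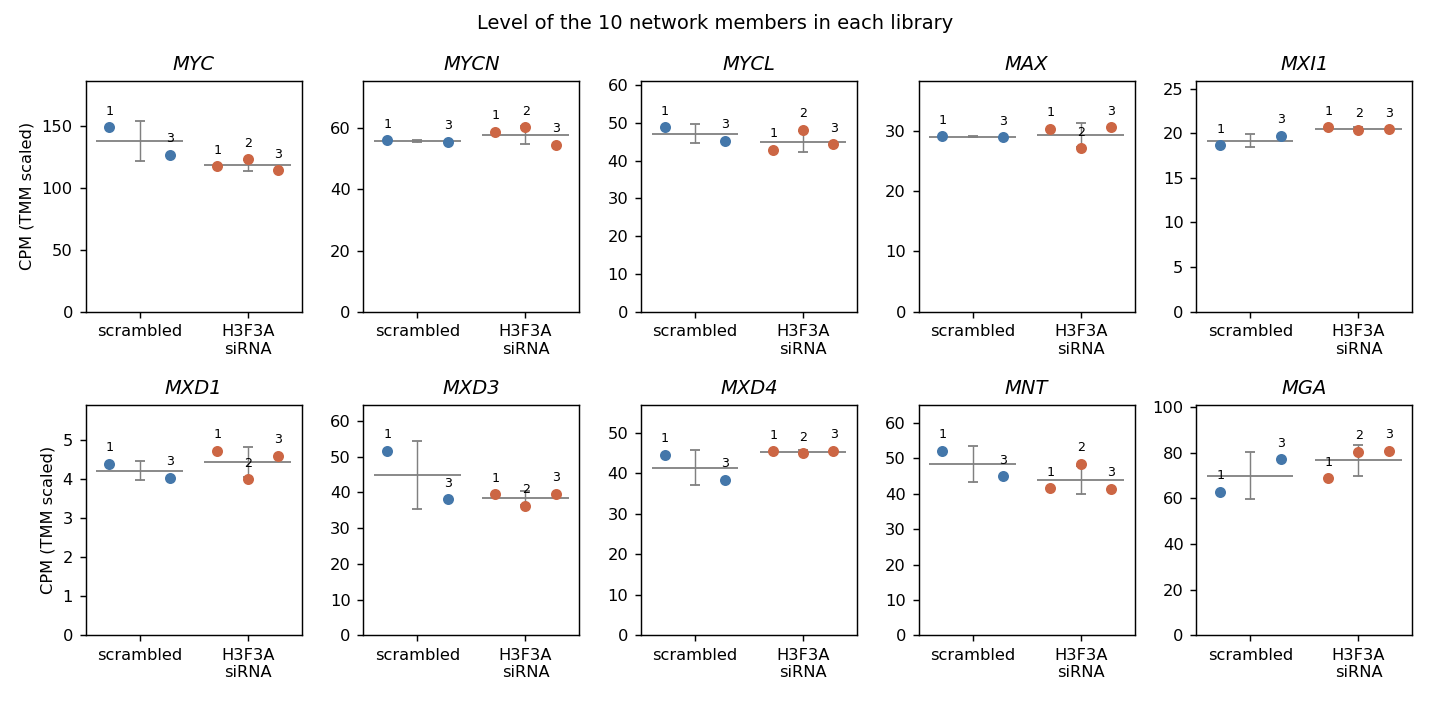
CPM (TMM scaled, axis from 0) of the 10 network members in the scrambled (blue) and H3F3A siRNA (orange) libraries, each point a library with its replicate number, the grey line the mean and the bar the SD (n = 2 and 3). MYC lay at 127 to 149 CPM under scrambled siRNA and at 115 to 123 CPM after H3F3A siRNA, while the groups of MYCN, MYCL, MAX, MXD1, MXD3, MNT and MGA overlapped.

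Levels per kilobase of the longest coding transcript in GENCODE 29 were taken first from the unstranded counts. MYC was then the highest member, at 48.4 to 63.1 CPM per kb over the 5 libraries. MYCN followed at 21 to 23.2, then MXD3 at 16 to 22.8 and MYCL at 13.1 to 15 CPM per kb. Below them lay MXD4 (9.46 to 11.2), MNT (8.3 to 10.4) and MAX (8.57 to 9.69), whose ranges overlapped each other. MXI1 at 5.37 to 5.96 and MGA at 4.36 to 5.6 CPM per kb also overlapped. MXD1 was lowest, at 0.715 to 0.846 CPM per kb. The ranges of MYCN and MXD3 overlapped, and the level of MXD3 covers only a part of its exons, as given further on. MAX, the partner that the other members share, was thus lower per length than each of the 3 MYC genes at the level of RNA. These counts leave out reads over exons of a gene on the opposite strand, a large part for MXD3, MAX and MYCN. With such reads counted, MAX had a mean of 12.8 CPM per kb under scrambled siRNA and 13.4 after H3F3A siRNA. MYCL then had 16.5 and 15.9, MXD4 10.2 and 11.2, and MNT 9.71 and 8.77. MXD3 had 125 and 109, above MYC at 58.4 and 50.1, though most of its reads are shared with another gene. The lengths come from an annotation that may not be the one the counts were made with. Per kilobase of all exons of a gene together, MYC (46 CPM per kb in scrambled libraries) and MYCN (21.5) were again first and second and MXD1 (0.664) last.

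MYC, the activator named for the avian virus gene, had 4357 and 3764 counts in scrambled libraries 1 and 3 and 3514, 3582 and 3542 counts in H3F3A siRNA libraries 1, 2 and 3. In CPM these were 149 and 127 against 118, 123 and 115. Every scrambled library lay above every H3F3A siRNA library, by a narrow margin between scrambled replicate 3 and H3F3A siRNA replicate 2. The groups did not overlap in 33.1% of all genes tested, lower in 17.1% and higher in 16%. The mean went from 138 ± 16 CPM (scrambled; SD, n = 2) to 119 ± 4.48 CPM (SD, n = 3), a log2 fold change of -0.22 (SE 0.0804, 95% interval -0.39 to -0.05, edgeR adjusted p = 0.147). Without scrambled replicate 1 the log2 fold change of MYC was -0.10 and without scrambled replicate 3 it was -0.33, so the size differed with the scrambled library left out. Each of these fits had a single scrambled library, so the spread of that group could not be measured. Scrambled replicate 1, left alone in the second fit, is the library whose GC slope stood apart.

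MYCN, the paralogue known from neuroblastoma and from fusion-positive rhabdomyosarcoma, had 1636 and 1651 counts under scrambled siRNA and 1755, 1752 and 1688 after H3F3A siRNA. In CPM it stood at 56.1 and 55.6 against 58.8, 60.4 and 54.6, with the groups overlapping. The log2 fold change was 0.05 with a 95% interval of -0.11 to 0.21 (edgeR adjusted p = 0.792). MYCL, the paralogue first found in lung cancer, had 1424 and 1344 counts under scrambled siRNA and 1276, 1395 and 1368 after H3F3A siRNA, or 48.8 and 45.3 against 42.8, 48.1 and 44.3 CPM. The groups of MYCL overlapped too, and its log2 fold change was -0.06 (95% interval -0.23 to 0.11, edgeR adjusted p = 0.752). All 3 MYC genes were thus expressed together in this line. Of their summed level per length, MYC made up 63.3% and 60.3% under scrambled siRNA and 58.2%, 57.9% and 58.3% after H3F3A siRNA. These sums leave out 25.4% to 32.5% of the reads over MYCN and 12% to 13.1% of those over MYCL, as given further on. With those reads counted the share of MYC would be lower. The share of MYC was highest in scrambled replicate 1 and close together in the H3F3A siRNA libraries.

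MAX had 847 and 858 counts under scrambled siRNA and 903, 785 and 945 after H3F3A siRNA, or 29 and 28.9 against 30.3, 27.1 and 30.6 CPM. The scrambled libraries lay inside the range of the H3F3A siRNA libraries. The log2 fold change of MAX was 0.02 (95% interval -0.16 to 0.20, edgeR adjusted p = 0.951). Taken as reads per MAX read within a library, none of the other 9 members separated the groups. MYC had 5.14 and 4.39 reads per MAX read under scrambled siRNA and 3.89, 4.56 and 3.75 after H3F3A siRNA.

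Among the MXD repressors, which take MAX away from MYC and bring the SIN3 corepressor, MXD4 and MXI1 were slightly higher after H3F3A siRNA in every library, without passing the test. MXD4, which is linked to exit from proliferation, had 44.5 and 38.4 CPM under scrambled siRNA and 45.5, 45 and 45.6 CPM after H3F3A siRNA. Scrambled replicate 1 lay within 1 CPM of the nearest H3F3A siRNA library, and scrambled replicate 3 lay below. The mean went from 41.4 ± 4.37 CPM (scrambled; SD, n = 2) to 45.4 ± 0.333 CPM (SD, n = 3), a log2 fold change of 0.13 (SE 0.0832, edgeR adjusted p = 0.459). With a single scrambled library left in each fit, the log2 fold change of MXD4 was 0.24 without scrambled replicate 1 and 0.03 without scrambled replicate 3. MXI1 had 18.6 and 19.7 CPM under scrambled siRNA and 20.7, 20.4 and 20.4 CPM after H3F3A siRNA (log2 fold change 0.10, 95% interval -0.09 to 0.29, edgeR adjusted p = 0.621). These groups do not overlap, but the gap is under 1 CPM. The groups did not overlap in 3 of the 10 members, MYC, MXI1 and MXD4. Over all genes tested they did not overlap in 33.1%, with 16% higher after H3F3A siRNA. MXD1, the founding member of the family, had 128 and 120 counts under scrambled siRNA and 141, 116 and 142 after H3F3A siRNA. It is the sparsest member, and its interval of -0.23 to 0.38 on the log2 scale was the widest (edgeR adjusted p = 0.848).

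MXD3, a member associated with proliferating cells, had 1506 and 1130 counts under scrambled siRNA and 1178, 1053 and 1227 after H3F3A siRNA. In CPM these were 51.6 and 38.1 against 39.5, 36.3 and 39.7. Scrambled replicate 1 alone was high, and scrambled replicate 3 lay within the range of the H3F3A siRNA libraries. The log2 fold change was -0.22 (SE 0.102, 95% interval -0.43 to -0.01, edgeR adjusted p = 0.272). With a single scrambled library left in each fit, the log2 fold change of MXD3 was 0.01 without scrambled replicate 1 and -0.42 without scrambled replicate 3.

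MNT and MGA, large proteins that share the MAX-binding domain, varied among libraries as much as between groups. MNT, which represses MYC targets in most cell types, had 52.1 and 44.9 CPM under scrambled siRNA and 41.6, 48.5 and 41.4 CPM after H3F3A siRNA. The groups overlapped, at a log2 fold change of -0.15 (95% interval -0.33 to 0.04, edgeR adjusted p = 0.432). It was -0.04 without scrambled replicate 1 and -0.25 without scrambled replicate 3, with a single scrambled library left in each fit. MGA, which also carries a T-box DNA-binding domain and builds a variant polycomb complex, had 62.9 and 77.2 CPM under scrambled siRNA and 68.8, 80.5 and 80.8 CPM after H3F3A siRNA. Its groups overlapped as well (log2 fold change 0.13, 95% interval -0.06 to 0.32, edgeR adjusted p = 0.502). In the same 1-library fits the log2 fold change of MGA was -0.01 without scrambled replicate 1 and 0.29 without scrambled replicate 3.

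The members differ in GC content, and some of their results changed when its trend was removed. The members' transcripts range from 42% GC for MGA and 42.7% for MXD1 to 61.4% for MNT and 64% for MXD4, with MYC at 53.9%. With each library's trend of log2 CPM over GC content removed, MXD4 was the only member called, at a log2 fold change of 0.35 (SE 0.0589, edgeR adjusted p = 0.00472), against 0.13 without that step. With scrambled replicate 1 also left out, the log2 fold change of MXD4 was 0.33 and was not called (adjusted p = 0.0897). MYC was at -0.16 (adjusted p = 0.213) with the GC trend removed and at -0.09 (adjusted p = 0.812) with scrambled replicate 1 also left out. Whether the trend over GC content arose in the cells or in the making of the libraries was not tested. The plot of log2 fold changes sets these values side by side.

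**Figure D2:**
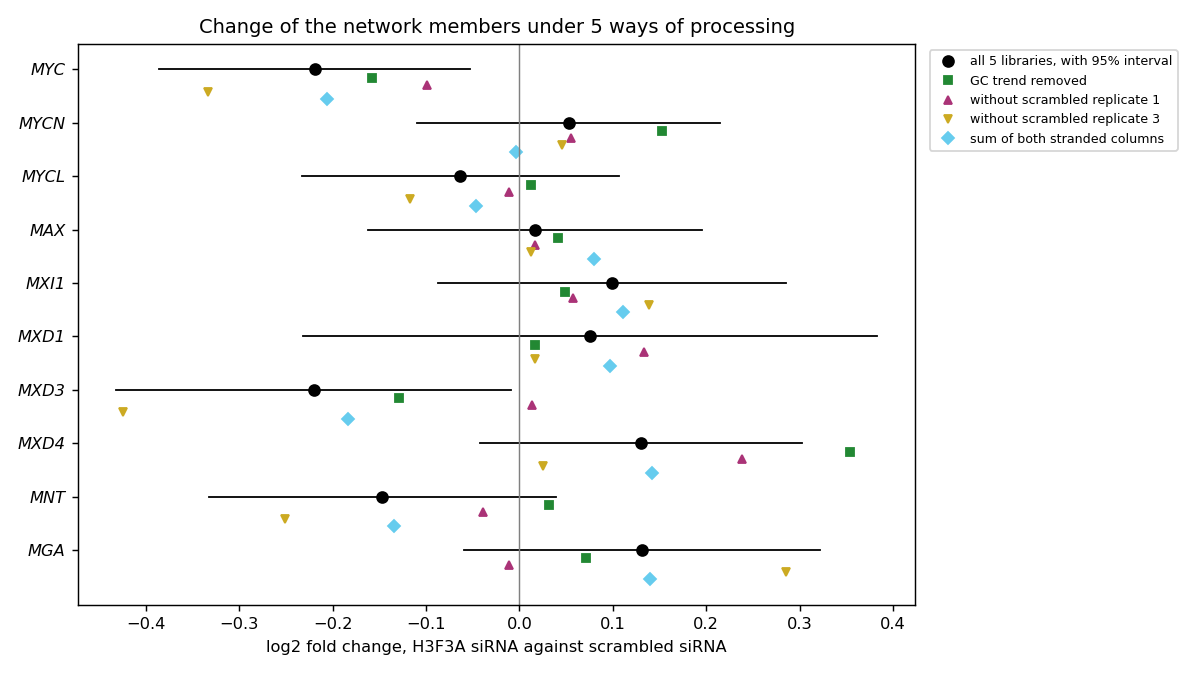
Log2 fold change of each member, H3F3A siRNA against scrambled siRNA, in the fit of all 5 libraries (black, with its 95% interval) and under 4 other ways of processing (coloured). The points of MXD3 run from -0.42 without scrambled replicate 3 to 0.01 without scrambled replicate 1, and MXD4 stands at 0.35 with the GC trend removed.

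The counts of 5 members cover only a part of the reads over their exons. The unstranded count leaves out a read that lies over exons of another gene on the opposite strand, while the sum of both stranded columns counts it for each of them. For MXD3 the sum was 8834 and 7804 under scrambled siRNA and 7548, 7026 and 7593 after H3F3A siRNA, so 83% to 85.5% of the reads were shared. PRELID1, a mitochondrial lipid-transfer factor whose exons overlap those of MXD3 on the opposite strand, had nearly the same shared reads, 7329 against 7328 in scrambled replicate 1. PRELID1 had 10273 and 8564 unshared counts under scrambled siRNA and 7401, 6890 and 8026 after H3F3A siRNA. It fell 1.29-fold from 320 ± 45.1 CPM (scrambled; SD, n = 2) to 248 ± 11.1 CPM (SD, n = 3; edgeR adjusted p = 0.0175), and was not called without scrambled replicate 1 (adjusted p = 0.246) or without H3F3A siRNA replicate 1 or 2 (0.17 and 0.112). RAB24, on the same strand as MXD3, overlaps 926 of its exon bases (18%) in GENCODE 29, and reads lying over both lie outside this percentage. Reads of MXD3 and PRELID1 in the shared stretch cannot be told apart in libraries that do not mark the strand.

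For MYCN, 25.4% to 32.5% of the reads were shared, and the shared reads were the same in number as those of MYCNOS, its antisense gene, in all 5 libraries (788, 783, 596, 733 and 800). Outside the shared stretch MYCNOS had only 38 to 52 counts per library. H3F3A siRNA replicate 1 had the fewest shared reads. With the shared reads counted, the log2 fold change of MYCN was -0.00396 (edgeR adjusted p = 0.988). MAX shared 25.8% to 33.4% of its reads, with the uncharacterised gene LOC100506321, which had 0 to 3 counts of its own. MYCL shared 12% to 13.1%, with MYCL-AS1, and MXD1 10.1% to 21.2%. The remaining members MYC, MXI1, MXD4, MNT and MGA shared under 1% of their reads. Counting the shared reads, none of the 10 members was called.

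**Figure D3:**
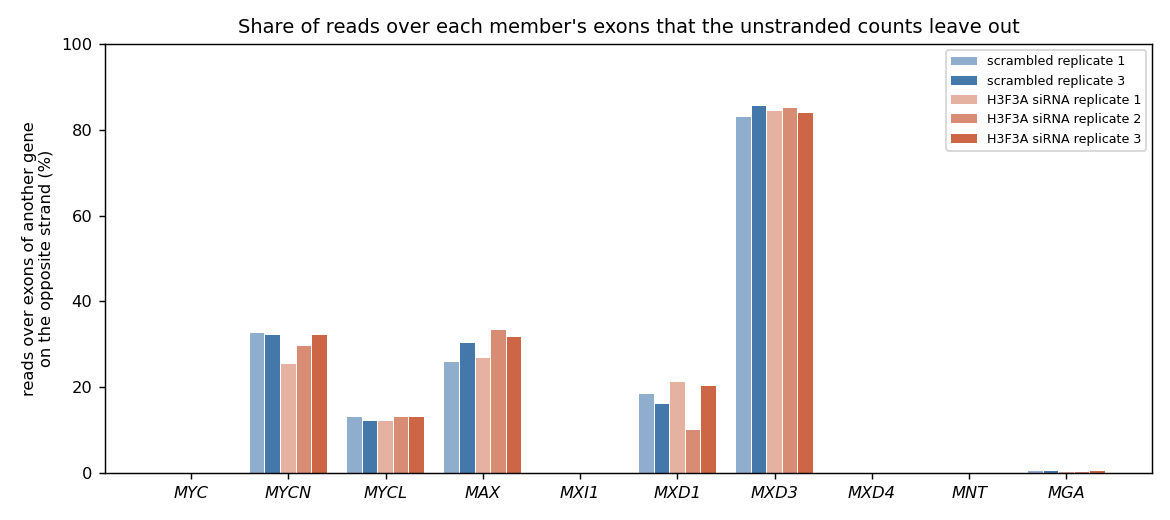
Percentage of the reads over each member's exons that lie over another gene on the opposite strand and are left out of its unstranded count, by library (bars, axis from 0 to 100%). MXD3 stands at 83% to 85.5% in every library, MYCN and MAX at 25.4% to 33.4%, and MYC, MXI1, MXD4 and MNT at or near 0.

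None of 12 tested coactivators and cofactors of MYC was called by edgeR or DESeq2, with 3 at an unadjusted p under 0.05 by each (HCFC1, RUVBL2 and CCNT1). HCFC1, a chromatin adaptor and the most abundant of them, had 617 ± 51.1 CPM (SD, n = 2) under scrambled siRNA and 518 ± 36.5 CPM (SD, n = 3) after H3F3A siRNA (edgeR adjusted p = 0.0941). Over all genes tested 16.8% were at an unadjusted p under 0.05 by edgeR and 48.6% lay below 0. DESeq2 had 2090 of the 15859 genes at an unadjusted p under 0.05 and called 544. Of the 12 coactivators, 11 lay below 0, with a median log2 fold change of -0.07. None of 17 corepressors used by MXD proteins and MNT was called by edgeR, with 3 at an unadjusted p under 0.05, and DESeq2 called 1. The median of the corepressors was 0.06. SIN3A and SIN3B, the scaffolds that MXD proteins bind, had log2 fold changes of 0.01 and -0.10 (edgeR adjusted p = 0.955 and 0.577).

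The complex that MGA builds and the parallel MLX arm showed no called gene. None of 10 tested subunits of the MGA complex was called by edgeR or DESeq2, and none had an unadjusted p under 0.05. CBX3, a heterochromatin protein and the most abundant of them, went from 363 ± 15.1 to 392 ± 21.8 CPM (SD, n = 2 and 3; edgeR adjusted p = 0.49), and E2F6 and L3MBTL2 had log2 fold changes of 0.05 and -0.02. RING1 is listed at 0 in every library beside several numbered copies, so its level cannot be read. The same holds for other broadly expressed genes that were left out of the tests: the coactivator SMARCB1 had 0 to 3 counts, the target LDHA 0 to 2, and the targets IPO4 and EIF4A1 are listed at 0 in every library. MLX, which pairs with glucose-sensing relatives of MYC, and its partner MLXIP had log2 fold changes of -0.02 and 0.05. TXNIP and ARRDC4, textbook targets of that pair, had log2 fold changes of 0.09 and 0.19 (edgeR adjusted p = 0.588 and 0.334). None of the 4 tested genes of the MLX arm had an unadjusted p under 0.05 by edgeR or DESeq2.

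Of 16 factors that stabilise or degrade MYC proteins, STUB1 was called, or 6.25% against 3.2% of all genes. STUB1, a chaperone-linked ubiquitin ligase, had 3327 and 2966 counts under scrambled siRNA and 2447, 2374 and 2782 after H3F3A siRNA. It fell 1.26-fold, from 107 ± 10 CPM (scrambled; SD, n = 2) to 84.6 ± 4.69 CPM (SD, n = 3; edgeR adjusted p = 0.0224). The call was lost without scrambled replicate 1 (log2 fold change -0.24, adjusted p = 0.189), without H3F3A siRNA replicate 1 or 2 (both -0.31 against -0.34, adjusted p = 0.199 and 0.129) and with the GC trend removed (log2 fold change -0.08, adjusted p = 0.604). The histone chaperone SET, the most abundant of the 16, had a log2 fold change of -0.06 (edgeR adjusted p = 0.788).

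Genes that MYC proteins activate were called in 2 of 89 cases, both lower, or 2.25% against 3.2% of all genes tested. Of 56 tested targets in a mainly nucleolar list 1 fell, and of 33 targets of growth and metabolism 1 fell. The first list also holds genes of the cell cycle, metabolism and transport, such as CDK4, MCM4 and SLC19A1, and SLC19A1 is the one that fell. The medians were -0.05 and -0.07, beside 0.01 over all genes, and 61 of the 89 lay below 0, or 68.5% against 48.6% of all genes. The median over the 89 was -0.06, and it was -0.02 with the GC trend removed, -0.04 without scrambled replicate 1 and -0.09 without scrambled replicate 3. SLC7A5, a carrier of large amino acids, had 8425 and 7727 counts under scrambled siRNA and 5861, 6013 and 6179 after H3F3A siRNA. It fell 1.36-fold, from 275 ± 20.3 CPM (scrambled; SD, n = 2) to 201 ± 5.53 CPM (SD, n = 3; edgeR adjusted p = 0.00246). All H3F3A siRNA libraries lay below both scrambled libraries, and the call was kept with the GC trend removed (log2 fold change -0.28, adjusted p = 0.00875) and lost without H3F3A siRNA replicate 1 (-0.43, adjusted p = 0.0821). SLC19A1, the reduced folate carrier, fell 1.26-fold from 113 ± 12.2 to 89.2 ± 0.427 CPM (SD, n = 2 and 3; edgeR adjusted p = 0.0201). With the GC trend removed its log2 fold change was -0.11 (adjusted p = 0.403), against -0.34, and without scrambled replicate 1 it was -0.22 (adjusted p = 0.189). Its call was also lost without any 1 of the H3F3A siRNA libraries, at log2 fold changes of -0.34 to -0.33 (adjusted p = 0.166, 0.101 and 0.0618 without replicates 1, 2 and 3). Both genes hold the E-box printed above, SLC19A1 in only 1 of its several promoter windows, as do 48.7% of the target genes with a window.

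The most abundant targets were not called. NPM1, the nucleolar chaperone nucleophosmin, had 1422 ± 19.3 CPM (SD, n = 2) under scrambled siRNA and 1493 ± 71.4 CPM (SD, n = 3) after H3F3A siRNA (edgeR adjusted p = 0.70). PKM, the pyruvate kinase of glycolysis, had 3478 ± 336 and 3134 ± 105 CPM (edgeR adjusted p = 0.366). ODC1 had a log2 fold change of -0.04 (95% interval -0.20 to 0.11, edgeR adjusted p = 0.82). Of the targets with a promoter window, 25 of 35 tested genes with the E-box and 27 of 39 without it lay below 0, with median log2 fold changes of -0.06 and -0.08.

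Genes that MYC proteins repress were called in 3 of 11 cases, all lower, where 3.2% of all genes were called. The median log2 fold change was -0.25, and 10 of the 11 lay below 0, or 90.9% against 48.6% of all genes. CCND1, the cyclin of the G1 phase, had 3210 and 3177 counts under scrambled siRNA and 2246, 2082 and 2468 after H3F3A siRNA, and fell 1.44-fold (edgeR adjusted p = 0.000839). PDGFRB, a growth factor receptor of mesenchymal cells, fell 1.28-fold from 44.4 ± 0.131 CPM (scrambled; SD, n = 2) to 34.7 ± 1.63 CPM (SD, n = 3; edgeR adjusted p = 0.0162). THBS1, a matrix protein that inhibits vessel growth, fell 1.27-fold from 84.4 ± 8.73 to 66.7 ± 4.05 CPM (SD, n = 2 and 3; edgeR adjusted p = 0.025). GADD45A, a stress response gene and the most abundant of the list, had a log2 fold change of -0.26 (edgeR adjusted p = 0.0657), and DESeq2 called it (adjusted p = 0.0292). CDKN1A and CDKN1B, the cell cycle inhibitors most often named as repressed by MYC, had log2 fold changes of -0.01 and -0.05 (edgeR adjusted p = 0.958 and 0.831). With the GC trend removed CCND1 (-0.51, adjusted p = 0.000118) and THBS1 (-0.37, adjusted p = 0.00698) were called and PDGFRB was not (-0.25, adjusted p = 0.0794), and without H3F3A siRNA replicate 1 none of the 3 was called (adjusted p = 0.0561 for CCND1, 0.159 for PDGFRB and 0.224 for THBS1). Their log2 fold changes there were -0.51, -0.33 and -0.30, against -0.52, -0.36 and -0.34. THBS1 was not called without replicate 2 or 3 (0.0566 and 0.072), nor PDGFRB without replicate 3 (0.0755). CCND1 was known from earlier results of these data to be lower, so its place in this list is no independent evidence. It is part of the counts and the median above. The whole list was chosen with earlier results known, so its excess over all genes is a description only.

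**Figure D4:**
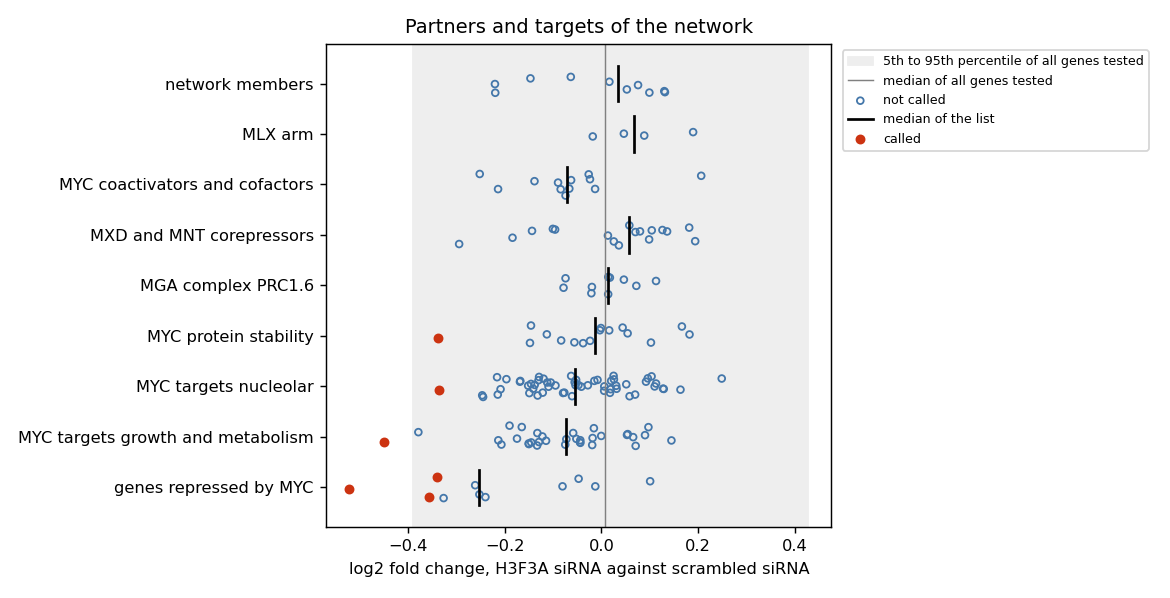
Log2 fold change of each tested gene in the network, its partners and its targets (points, filled where called at an adjusted p under 0.05), with the median of each list (black line), the median of all genes tested (grey line) and the 5th to 95th percentile of all genes tested (shaded, -0.39 to 0.43). The genes repressed by MYC have the lowest median, at -0.25, with CCND1 farthest to the left.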

How the data were processed

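Poly-A RNA of 5 Rh41 libraries (2 scrambled siRNA, 3 H3F3A siRNA) was measured, and groups and replicate numbers come from the sample titles. Each deposited table gives whole-number read counts for every gene row, with 1 unstranded and 2 stranded columns as STAR writes them. The submitters' processing notes name STAR 2.5, HTSeq 0.6.1, DESeq2 and hg19 without saying which made the files, and the annotation is not given in the sources used here. The tables hold no coordinates. H3F3A and H3F3B are the rows H3-3A and H3-3B, and PHB1 was read from the row PHB.

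Unstranded counts were used without the 4 summary lines, which hold 4.84% to 5.48% unmapped, 6.28% to 6.42% multimapping, 9.17% to 10.2% unassigned and 4.45% to 4.56% ambiguous reads. Genes were kept by filterByExpr (minimum count 10, minimum total 15), scaled by TMM and tested with the quasi-likelihood test of edgeR 4.0.16 (R 4.3.3, robust fit, no covariates), with p-values adjusted by Benjamini-Hochberg over all 15859 genes and called under 0.05. Standard errors (log2 fold change over the root of F) gave the 95% intervals. The test was first checked on simulated data, where it called 59% of genes with a log2 change of 0.4 and 90% of those with 1. Of the calls there 1.32% were false. Smaller changes, such as those of the members, were not simulated. Alternatives were DESeq2 1.42.0, other scalings and filters, the stranded sum, a fit without robust, leaving out each library, a replicate block and removal of a lowess trend (span 0.3) over the GC content of GENCODE 29 transcripts, known for 89.2% of genes tested.

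The members, gene lists and tests were chosen with earlier results of these data known. Named are all members, H3F3A, H3F3B, every called gene of a list where 6 or fewer were called, the most abundant gene of each list of targets or partners, and genes that share reads with a member. RUVBL2, CCNT1 and other uncalled partners or targets were named after their values were seen. Not every gene of the lists that this rule names is reported here.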

Additional observations from a re-analysis of the deposited data

How the results depend on the processing

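Over the 16 alternatives, MYC stayed below 0 and MXI1, MXD1 and MXD4 above 0 in every fit, with log2 fold changes of -0.33 to -0.09 for MYC and 0.03 to 0.37 for MXD4. The sign of MYCN turned with the stranded sum (-0.00396). MYCL and MNT turned with the GC trend removed (0.0122 and 0.0318) and, with scrambled replicate 1 also left out, at 0.00783 and 0.0266, when MXD3 (0.0363) and MGA (-0.0261) turned too. Leaving out 1 library gave -0.424 to 0.0134 for MXD3, -0.0117 to 0.286 for MGA and -0.0153 to 0.0707 for MAX. None of the values with a turned sign was called, and the cause was not tested. Members called numbered 0, where 427 of the 15859 genes tested were lower and 80 higher. With the GC trend removed 1 member was called (MXD4), where 171 of all genes were lower and 99 higher. With the replicate block as well 2 members were called (MXD4 and MYC), where 693 of all genes were lower and 626 higher. Leaving out any 1 of the H3F3A siRNA libraries gave 0 members called.

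Over all genes 427 were called lower and 80 higher, and without any filter 153 were higher. With the GC trend removed 171 were lower, with the block as well 693 lower and 626 higher, and with scrambled replicate 1 left out instead 52 lower and 18 higher. Without 1 library 9 to 1737 were lower and 6 to 744 higher, the fewest without H3F3A siRNA replicate 1 and the most without scrambled replicate 3. MYC targets called were 2, against 1 with the GC trend removed, 9 with the block as well, 1 with scrambled replicate 1 left out instead and 0 to 20 without 1 library. Where a single scrambled library was left, it was assumed to vary like the H3F3A siRNA group.

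Replicate numbers 1 and 3 occur in both groups, and nothing says that they pair the libraries. Deviations from the group means correlated at 0.105 for number 1 and 0.0445 for number 3 across genes. Scrambled replicate 3 correlated more with H3F3A siRNA replicate 2, at 0.0638. The deviations of the 2 scrambled libraries mirror each other, so these values are not independent. With the replicate block alone no member was called and 2 MYC targets fell and 1 rose. The block leaves 1 residual degree of freedom, so calls with it rest on the spread shared across genes.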

Other observations

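Neither MYC nor MXD4 was called in the fit of all 5 libraries, but the ratio of the 2 separated the groups. This was fixed in advance, because in CPM every H3F3A siRNA library lay below the scrambled libraries for MYC and above them for MXD4. There were 3.35 and 3.30 MYC reads per MXD4 read in the scrambled libraries and 2.59, 2.74 and 2.51 after H3F3A siRNA. A ratio within a library does not depend on how libraries are scaled, but this one adds no support to the separate results. How many other pairs of members separate was not counted, apart from those with MAX given above. This pair was picked after the values were seen, the transcripts differ in GC content (53.9% and 64%), and no test was made.

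Genes at or near the members' loci were not called by edgeR or DESeq2 in any of 17 tested cases. At an unadjusted p under 0.05 there were 2 by each, NBAS and LMAN2, or 11.8% against 16.8% of all genes by edgeR. DDX1 and NBAS, which lie near MYCN, had log2 fold changes of 0.05 and 0.22 (edgeR adjusted p = 0.81 and 0.19), and DDX1 was the most abundant of them. PVT1, the noncoding gene beside MYC, had 377 and 373 counts under scrambled siRNA and 385, 354 and 380 after H3F3A siRNA (log2 fold change -0.03, edgeR adjusted p = 0.912). MYCNUT had 0 counts in 4 libraries and 1 in the other.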
